A study of Mus musculus with 5 samples.

Results

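Polycomb repressive complex 2 (PRC2) was followed through 10 of its genes in sequenced messenger RNA from the developing mouse retina. The members were taken by symbol from the deposited table: the catalytic subunits Ezh1 and Ezh2, the core subunits Eed, Suz12, Rbbp4 and Rbbp7, and the accessory subunits Jarid2, Aebp2, Mtf2 and Phf19. All 10 were found among 24594 genes, and all 10 passed the minimum mean value of 10 used for testing. Per the labels, plasmids were put into the eyes of living mouse pups by electroporation at postnatal day 0, and retinas were taken 4 days later and dissociated. Cells positive for GFP were then collected by fluorescence-activated sorting, and the labels name them RPC (retinal progenitor cells). The control group has 2 libraries from eyes given CAG-GFP, a plasmid for green fluorescent protein, and the other group has 3 libraries from eyes given CAG-Zfp292, labelled Zfp292-OE. Zfp292 encodes a nuclear protein with many zinc fingers. The CAG promoter drives expression in most cell types, so the promoter did not restrict expression to progenitors. The labels give neither the strain of the mice nor whether replicates are separate animals. The spread behind every p-value is therefore that of these libraries alone and may be technical.

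PRC2 adds methyl groups to lysine K27 of histone H3, a mark of genes held silent. Ezh2 or Ezh1 carries the enzyme, Eed and Suz12 are needed for its activity, and the histone-binding proteins Rbbp4 and Rbbp7 complete the core. Accessory proteins direct the core to chromatin in alternative assemblies: Jarid2 and Aebp2 in the form called PRC2.2, and one Polycomb-like protein, such as Mtf2 or Phf19, in PRC2.1. Ezh2 is known to be abundant in dividing progenitors, in the retina as elsewhere, and Ezh1 to persist in cells that have stopped dividing.

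The libraries held 103096224 to 137683716 reads assigned to genes, so every member but Phf19 had at least 1415 reads in each library. Phf19 had 91 and 139 reads in control and 276 to 420 in the others. Zfp292 itself read 13288 and 14756 in control, against 14631, 13197 and 15534 in the libraries labelled Zfp292-OE, so the groups overlapped (log2 fold change 0.04, SE 0.14, limma adjusted p = 0.87). Directions below are therefore those of the labels. All 10 progenitor markers on the list passed the minimum, among them Pax6 and Rax, and so did all 10 rod markers, among them Pde6b. In bulk RNA, fewer cells of a type and less RNA per cell cannot be told apart.

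The PRC2 genes did not change as a block. Ezh2, Eed, Rbbp7, Mtf2 and Phf19 rose in the libraries labelled Zfp292-OE, Jarid2 fell, and Ezh1, Suz12, Rbbp4 and Aebp2 did not pass the test. The test was limma on log2(value + 1) over 16316 genes with a Benjamini-Hochberg adjusted p below 0.05. Of all tested genes it called 17.4%, 10% as higher and 7.38% as lower, against 5 and 1 of the 10 members. The groups did not overlap for 7 members, 6 higher and 1 lower, where 49.9% of all tested genes showed no overlap (24.3% higher and 25.7% lower). The median log2 fold change of the 10 members was 0.53, and that of all tested genes was −0.06. The edgeR quasi-likelihood test on recovered whole reads called 4 members higher and 1 lower, where it called 16.1% of all tested genes, 8.28% higher and 7.78% lower. Each call needed both control libraries: with either one left out, limma called 0 members and 1 gene in all, while an unadjusted p below 0.05 was reached by 4390 genes (control library 1 left out) and 3534 (control library 2 left out). When library 1 or library 2 of the Zfp292-OE label was left out, 3 members were higher and 1 was lower. Over all genes, 929 of 16365 were higher and 728 lower without library 1. Without library 2, limma called 2010 of 16332 genes, 1069 of them higher.

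**Figure D1:**
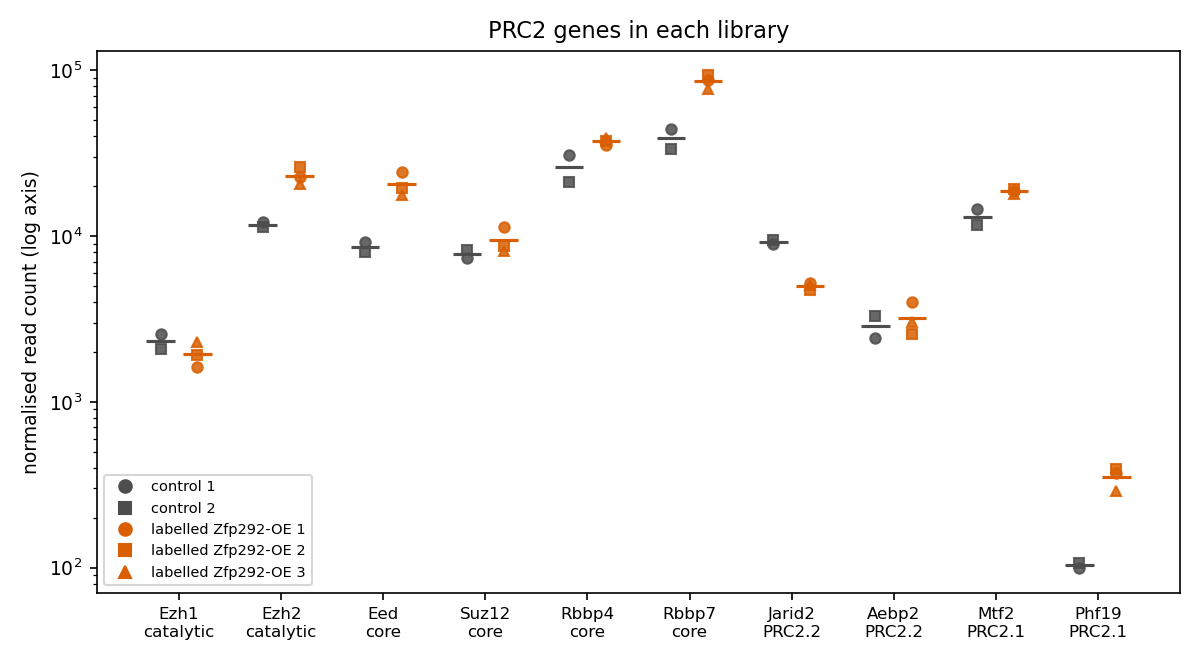
Normalised read count (log axis) of the 10 PRC2 genes in each of the 5 libraries, with control libraries in grey, libraries labelled Zfp292-OE in orange, and a bar at each group's mean. Ezh2, Eed, Rbbp4, Rbbp7, Mtf2 and Phf19 lie higher in all 3 orange libraries than in both grey ones, Jarid2 lies lower, and the groups overlap for Ezh1, Suz12 and Aebp2.

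**Figure D2:**
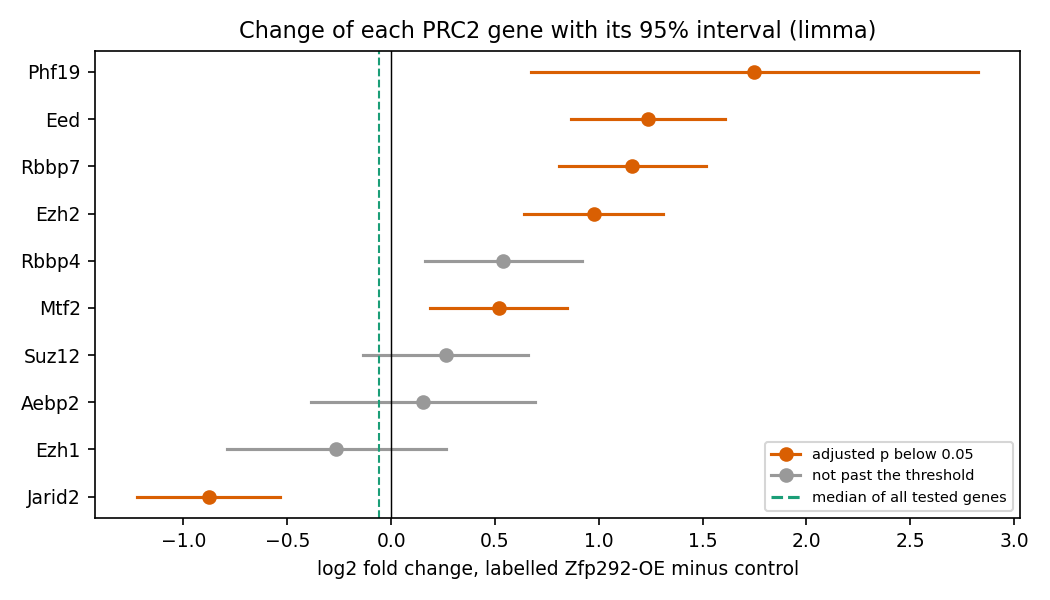
Log2 fold change (libraries labelled Zfp292-OE minus control) of each PRC2 gene, with its 95% interval from limma. Orange marks an adjusted p below 0.05, and the dashed line is the median of all tested genes. Values run from −0.88 for Jarid2 to 1.75 for Phf19.

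Promoter stretches of 3 members that rose (Ezh2, Phf19 and Eed) and of Suz12, which did not pass the test, are shown for the motif matches they hold. RefSeq promoter windows of GRCm38.p6, 250 bases before to 50 bases after a gene's start, were matched for all 10 members and searched on both strands for the E2F-type motifs TTTGGCGC, TTTCCCGC, TTTCGCGC and TTTGCCGC. E2F factors drive genes of the cell cycle. A match was found in 3 of 10 members, Ezh2, Suz12 and Phf19, and in 4.38% of the 12815 tested genes with a window (2.26% of all 32851 windows). A second motif, the cell cycle homology region (TTTGAA or TTCGAA on both strands), was found in 4 members, Eed, Suz12, Mtf2 and Aebp2, and in 16.6% of tested genes. Mtf2, Aebp2 and Jarid2 had several windows at different starts, and a match in any window counted. The Mtf2 match lay in the window at 108077915 to 108078214, inside the gene, and not in its first window. The Aebp2 match likewise lay in an inner window, at 140626635 to 140626934. Matches of the E2F type were thus held by members that rose and by Suz12, which did not pass, and Rbbp7 and Jarid2 had no match to either motif in these windows. The stretches below run 5′ to 3′ on the gene's strand, with E2F-type matches in capitals in the first 3 and homology region matches in capitals for Eed. They lie at chr6:47595013-47595042 (minus strand, across the window's start of Ezh2), chr11:79992856-79992955 (plus strand, before Suz12), chr2:34914116-34914215 (minus strand, before the window's start of Phf19) and chr7:89981127-89981226 (minus strand, before Eed). The starts used for the Ezh2 and Phf19 windows lie inside the outer bounds of these genes as given with their values, so both stretches lie within those bounds.
Ezh2: gattgggttgctgcgTTTGGCGCtcggtcc
Suz12: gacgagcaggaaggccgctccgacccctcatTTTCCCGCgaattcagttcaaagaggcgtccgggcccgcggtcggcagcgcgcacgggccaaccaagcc
Phf19: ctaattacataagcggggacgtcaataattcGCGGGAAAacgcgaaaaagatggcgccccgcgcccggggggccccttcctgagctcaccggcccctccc
Eed: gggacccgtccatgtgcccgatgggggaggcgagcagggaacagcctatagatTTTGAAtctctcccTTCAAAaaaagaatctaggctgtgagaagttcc
A match is a description of these letters, and binding was not measured.

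Of the catalytic subunits, Ezh2 passed the test and Ezh1 did not. Ezh2, the main methyltransferase of dividing cells (Entrez 14056, GRCm38 chromosome 6, 47530274 to 47595270), was measured in control at normalised read counts of 12130 and 11346. In libraries 1, 2 and 3 labelled Zfp292-OE it reached 22748, 26202 and 20593. Every one of these lay above both controls. Group means were 11738 ± 555 (SD, n = 2) for control and 23181 ± 2830 (SD, n = 3). Ezh2 rose by 0.98 on the log2 scale (SE 0.15), or 1.97-fold (95% interval 1.56 to 2.48, limma adjusted p = 0.0027). Its value ranged from 0.71 to 1.06 over the alternatives run on all libraries. The upper end came from the replicate block and equals the value without library 3 labelled Zfp292-OE. Ezh2 passed in 13 of 15 alternatives. In those 13, adjusted p ran from 2.3e-08 (DESeq2) to 0.013 (limma without library 1 labelled Zfp292-OE). Both exceptions were fits with 1 control library.

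Ezh1, the paralog with weaker methyltransferase activity (Entrez 14055, chromosome 11, 101191115 to 101226463), read 2564 and 2073 in control and 1614, 1914 and 2297 in libraries 1, 2 and 3 of the Zfp292-OE label. Library 3 lay between the controls, so the groups overlapped. The log2 fold change was −0.26 (SE 0.24, limma adjusted p = 0.47). The interval of the fold, 0.579 to 1.20 around 0.833, covers both a fall and a rise.

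Of the core subunits, Eed and Rbbp7 rose. Eed, which binds the methyl mark and stimulates the enzyme (Entrez 13626, chromosome 7, 89954654 to 89980976), read 9218 and 8066 in control. With the Zfp292-OE label, the 3 libraries read 24180, 19559 and 17781, all above both controls. The mean was 8642 ± 814 (SD, n = 2) in control against 20507 ± 3303 (SD, n = 3). Eed rose by 1.24 on the log2 scale (SE 0.17), or 2.36-fold (interval 1.82 to 3.05, limma adjusted p = 0.0014, range over 15 alternatives 3.1e-10 to 0.12). Exons of the antisense transcript E230029C05Rik overlap Eed, and whether counting used strand is not given in the sources used here. That transcript read 213 to 326 in the 5 libraries, far below Eed (log2 fold change −0.22, limma adjusted p = 0.77). Antisense RNA genes not matched in the table also overlap exons of Ezh2, Suz12 and Rbbp4. The antisense gene Sync overlaps Rbbp4 as well, by up to 518 bases of an exon. Sync read 4.62 in control library 2, 29.3 in library 3 labelled Zfp292-OE and 0 in the others, far below Rbbp4.

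Suz12, the scaffold that holds the core and its accessory proteins together (Entrez 52615, chromosome 11, 79993106 to 80034123), read 7334 and 8188 in control, and 11339, 8684 and 8179 in libraries 1, 2 and 3 of the Zfp292-OE label. Library 1 stood highest, and library 3 lay just under control library 2. The log2 fold change was 0.26 (SE 0.18, limma adjusted p = 0.33), with an interval for the fold of 0.911 to 1.58. Suz12 passed in 0 of 15 alternatives.

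Rbbp7, one of 2 related histone chaperones of the core (Entrez 245688, chromosome X, 162760372 to 162779090), was the most abundant member. Its values were 43993 and 33574 in control and 87693, 93188 and 77625 in the others. The lowest of these 3 was above the higher control. The control mean of 38784 ± 7367 (SD, n = 2) stood against 86169 ± 7893 (SD, n = 3). Rbbp7 rose by 1.16 on the log2 scale (SE 0.16, limma adjusted p = 0.0015, range over 15 alternatives 4.5e-10 to 0.11). The neighbouring gene Txlng lies on the other strand, with a largest single exon overlap of 174 bases. Txlng read 2722 and 2983 in control and 3567 to 4095 in the others.

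Its paralog Rbbp4 (Entrez 19646, chromosome 4, 129307100 to 129335370) read 30866 and 21263 in control. The 3 libraries with the Zfp292-OE label read 35382, 37386 and 39093, close to each other and all above both controls. The log2 fold change was 0.54 (SE 0.17) and the limma adjusted p was 0.054, just short of the threshold. It passed in DESeq2 (0.024), with a filter at a mean of 50 (0.045) and with a pseudocount of 10 (0.0495), and not in the other 12 alternatives (up to 0.40). Rbbp4 and Rbbp7 also sit in other complexes, among them NuRD and Sin3, and Rbbp4 in the chromatin assembly factor CAF-1. Their messenger RNA is therefore not specific to PRC2.

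Among the accessory genes, Jarid2 of PRC2.2 fell. Jarid2, a Jumonji-family protein without demethylase activity that recruits PRC2 and is itself methylated by it (Entrez 16468, chromosome 13, 44730774 to 44921643), read 8951 and 9424 in control and 5212, 4698 and 5098 in libraries 1, 2 and 3 of the Zfp292-OE label. Values within each group were close and the groups lay far apart, with means of 9188 ± 335 (SD, n = 2) for control and 5003 ± 270 (SD, n = 3). Jarid2 fell by 0.88 on the log2 scale (SE 0.15), to 0.544 of control (interval 0.429 to 0.691, limma adjusted p = 0.0052, range over 15 alternatives 1.9e-07 to 0.12).

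Aebp2, a zinc finger protein that binds Suz12 (Entrez 11569, chromosome 6, 140622454 to 140678472), read 2426 and 3307 in control. The others read 4014, 2569 and 3035, so that 2 of the 3 lay within the control range. The log2 fold change was 0.15 (SE 0.24, limma adjusted p = 0.70), with an interval for the fold of 0.765 to 1.62. Its sign turned negative with equal totals (−0.06) and without control library 1 (−0.07) or library 1 labelled Zfp292-OE (−0.02), so no direction is given.

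Both Polycomb-like members of PRC2.1 rose, from very different levels. Mtf2, which binds unmethylated CpG-rich DNA (Entrez 17765, chromosome 5, 108065660 to 108109219), read 14552 and 11651 in control. In the others it read 18801, 19128 and 18015, 3 close values above both controls. Mtf2 rose by 0.52 on the log2 scale (SE 0.15), or 1.43-fold (interval 1.14 to 1.80, limma adjusted p = 0.039). The call was close to the threshold and held in 5 of 15 alternatives. It was lost in edgeR (0.063), with no filter (0.051), with equal totals (0.16, log2 fold change 0.30), after quantile normalization (0.25, log2 fold change 0.25), with a replicate block (0.084) and whenever a library was left out (0.060 to 0.20). An exon of Mtf2 shares 395 bases with the antisense gene Tmed5, which rose as well (control mean 5613 ± 201, SD, n = 2, against 8957 ± 1034, SD, n = 3). The part of that overlap in the Mtf2 value was not tested.

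Phf19, which binds methylated lysine K36 of histone H3 through its Tudor domain (Entrez 74016, chromosome 2, 34893752 to 34914353), was the lowest member, at 99.2 and 107 in control. It read 372, 395 and 289 in libraries 1, 2 and 3 of the Zfp292-OE label, all above both controls. Phf19 rose by 1.75 on the log2 scale (SE 0.48), the most of the 10 members, or 3.36-fold with a wide interval of 1.59 to 7.09 (limma adjusted p = 0.034, edgeR 0.048). It passed in 9 of 15 alternatives and missed the threshold with no filter (0.076), with equal totals (0.055), without library 1 or 2 labelled Zfp292-OE (0.095 and 0.086) and without control library 1 or 2 (0.12 and 0.16).

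Levels were set against each other per kilobase of exon, with exon lengths from GENCODE vM21 that may differ from the annotation the counts used. In control, Rbbp7 was highest at 16532 ± 3140 per kilobase, followed by Rbbp4 (5914 ± 1541), Ezh2 (4189 ± 198), Eed (4181 ± 394), Mtf2 (3227 ± 505), Suz12 (1775 ± 138), Jarid2 (1492 ± 54.3), Ezh1 (381 ± 57.1), Aebp2 (351 ± 76.3) and Phf19 (27.6 ± 1.49), each a mean ± SD of n = 2. Ezh2 could not be told from Eed in this order, nor Ezh1 from Aebp2, since their libraries overlapped. The other neighbours had separate ranges in these 2 libraries. In the libraries labelled Zfp292-OE (n = 3), Eed (9921 ± 1598), Rbbp4 (8461 ± 421) and Ezh2 (8273 ± 1010) had neighbouring means and overlapping libraries. Jarid2, at 812 ± 43.8, still stood above Aebp2 (393 ± 90.4) and Ezh1 (319 ± 56.3), and Phf19 remained lowest at 94.0 ± 14.9.

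Ratios of a pair of members within a library do not depend on how libraries were scaled, and several separated the groups. The direction of a ratio depends on which gene is put on top. Each ratio restates member values given above, so a separation of the groups is no further evidence of a change. Only the ratio of Ezh2 to Ezh1 was given a test. How often ratios of other gene pairs separate the groups was not tested. The ratio of Ezh2 to Ezh1 per kilobase was 10.3 and 11.9 in control and 30.6, 29.7 and 19.5 in the others. On this measure Ezh2 supplied 91.1% and 92.2% of the Ezh1 and Ezh2 messenger RNA in control, and 96.8%, 96.7% and 95.1% in the libraries labelled Zfp292-OE. The log2 ratio of the read counts was 1.24 higher in those libraries (range 1.12 to 1.45 when a library was left out). A two-sided exact permutation test over the 5 libraries gave p = 0.2, the smallest this design allows.

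Among the core subunits, Rbbp7 was 2.68 and 2.97 times Rbbp4 in control and 4.66, 4.68 and 3.73 times in the others. Eed was 2.66 and 2.08 times Suz12 in control and 4.51, 4.76 and 4.60 times in the libraries labelled Zfp292-OE. Ezh2 was 2.58 and 2.16 times Suz12 in control, and 3.13, 4.71 and 3.93 times in the others. In each of these 3 ratios, every library labelled Zfp292-OE lay above both controls.

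Ratios among the accessory genes did not overlap between the groups either. Mtf2 was 2.47 and 1.88 times Jarid2 in control, and 5.47, 6.18 and 5.36 times in the libraries labelled Zfp292-OE. The summed level of Mtf2 and Phf19, the PRC2.1 members, was 2.06 and 1.497 times that of Jarid2 and Aebp2 in control. It was 3.54, 4.47 and 3.76 times in the others. Within PRC2.2, Aebp2 was 0.204 and 0.265 of Jarid2 in control and 0.581, 0.412 and 0.449 in the libraries labelled Zfp292-OE. Within PRC2.1 the ratio of Mtf2 to Phf19 went down, from 135 and 100 in control to 46.6, 44.6 and 57.5 in the others. These are ratios of messenger RNA, and protein or assembled complex was not measured.

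**Figure D3:**
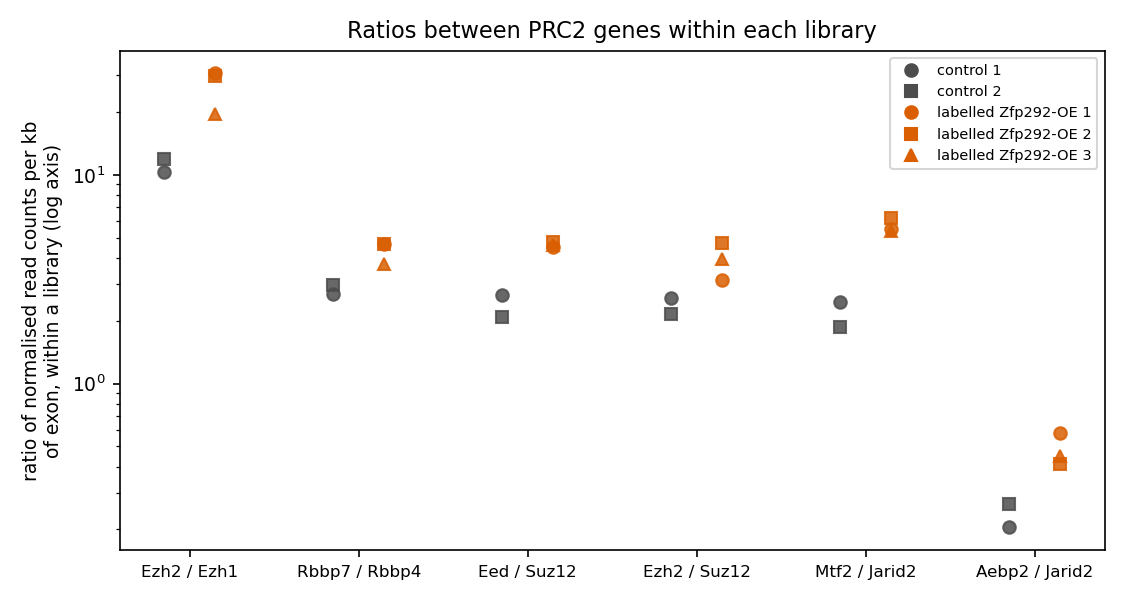
Ratios between pairs of PRC2 genes within each library, in normalised read counts per kilobase of exon (log axis), with control libraries in grey and libraries labelled Zfp292-OE in orange. In each of the 6 ratios the 3 orange libraries lie above both grey ones, from 10.3 and 11.9 to between 19.5 and 30.6 for Ezh2 over Ezh1. The ratio of Mtf2 to Phf19, which lay lower in all 3 libraries labelled Zfp292-OE, is not drawn.

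Other genes that act with or against PRC2 were read from lists. Of 6 further accessory genes of PRC2, 4 were tested, and 0 rose, 0 fell and 4 did not pass in limma or edgeR. Of all tested genes, limma called 17.4% and edgeR 16.1%. An unadjusted limma p below 0.05 was reached by 2 of the 4, and by 5351 of all 16316 tested genes. Phf1, the third Polycomb-like protein, read 678 and 709 in control and 356, 405 and 208 in the libraries labelled Zfp292-OE, lower in each. Its log2 fold change was −1.15 (limma adjusted p = 0.085, range over 15 alternatives 0.047 to 0.32), opposite in sign to Mtf2 and Phf19. Lcorl, whose locus encodes a PRC2 binding protein as that of Lcor does, differed by 0.37 on the log2 scale (limma adjusted p = 0.10), Lcor by −0.44 (0.27) and Epop by −0.80 (0.43). Ezhip, an inhibitor of the enzyme, had 12 reads in control library 1 and 0 in the other libraries and was not tested, and Skida1 was not matched.

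Of the demethylases that remove the mark, Kdm6b passed the test and Kdm6a did not. Kdm6b read 2429 and 4134 in control and 1637, 1609 and 1671 in the others, and fell by 0.95 on the log2 scale (SE 0.26, limma adjusted p = 0.031, range over 15 alternatives 0.0021 to 0.22). Its controls differed widely, and the 3 other libraries were nearly equal. Kdm6a, its X-linked relative, differed by 0.08 on the log2 scale (limma adjusted p = 0.82), which turned to −0.14 with equal totals and −0.24 without control library 1.

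PRC1 is the complex that adds ubiquitin to histone H2A and binds the PRC2 mark. Of 24 genes tested, 3 rose, 0 fell and 21 did not pass, where 10% of all tested genes were called higher and 7.38% lower. The median log2 fold change of the 24 was −0.15, and edgeR called 2 higher and 1 lower. The Polycomb ring finger gene Pcgf5 rose by 1.15 on the log2 scale (limma adjusted p = 0.0024), with a mean of 3863 ± 18.1 (SD, n = 2) in control against 8650 ± 1206 (SD, n = 3). Scml2 rose by 1.19 (adjusted p = 0.047), and the catalytic subunit Rnf2 by 0.62 (adjusted p = 0.047, 0.088 in edgeR). Values for Ring1, the other catalytic subunit, were −1.28 (adjusted p = 0.083), and those of Bmi1 were −0.13 (0.61). Of 8 genes of the deubiquitinase complex PR-DUB, 0 passed in limma and 1 fell in edgeR. An unadjusted limma p below 0.05 was reached by 1 of the 8, and by 5351 of all 16316 tested genes. That gene was Mbd6 (log2 fold change −0.71, limma adjusted p = 0.053, edgeR 0.040), while Asxl3 and Bap1 had values of −0.50 (0.20) and −0.29 (0.22).

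Among the trithorax and COMPASS genes, most methyltransferases act on lysine K4 of histone H3. Of 15 such genes 1 was higher and 1 lower, with a median of −0.25. Among all tested genes, 10% were called higher and 7.38% lower. Dpy30, a shared subunit, rose by 0.59 (adjusted p = 0.031), Kmt2b fell by 0.78 (0.027), and Kmt2d had a value of −0.82 (0.075). The 18 other genes of complexes that hold Rbbp4 or Rbbp7 had 5 higher, 1 lower and 12 not passing. These counts stand against the same shares of all tested genes, and the list's median was 0.39. Chaf1b, a subunit of CAF-1, rose by 1.95 (adjusted p = 0.00040), and Hat1, the acetyltransferase that pairs with Rbbp7, rose by 1.54 (0.0010). The deacetylases Hdac2 (0.97) and Hdac1 (0.70) and the Sin3 subunit Sap30 (0.71) rose too, Hdac1 with an edgeR adjusted p of 0.051. Chd3, a remodeller of NuRD, fell by 1.40 (adjusted p = 0.0024).

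**Figure D4:**
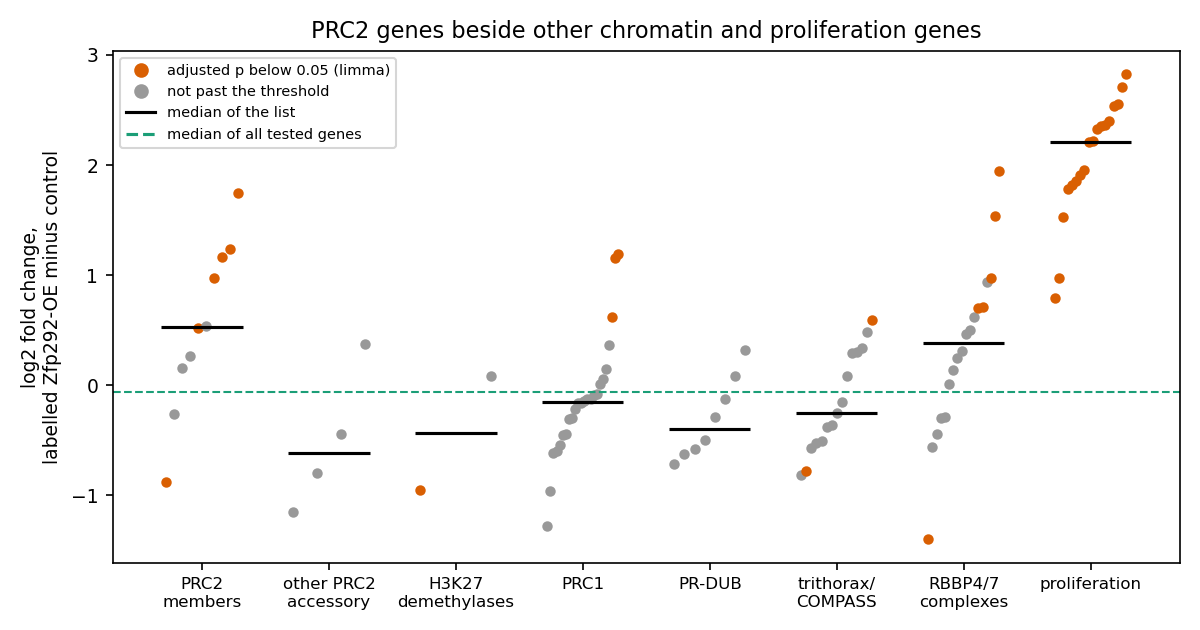
Log2 fold change (libraries labelled Zfp292-OE minus control) of each tested gene in 8 lists, with orange points past an adjusted p of 0.05 in limma, black bars at list medians, and the dashed line at the median of all tested genes. The PRC2 median is 0.53, the PRC1 median −0.15 and the proliferation median 2.21.

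Markers of dividing cells moved with the PRC2 genes that rose. All 18 proliferation genes rose, where limma called 10% of all tested genes higher. The median log2 fold change of the list was 2.21, with a range of 0.79 to 2.83. Among them, Mcm6 of the replicative helicase rose by 2.37, the mitotic cyclin Ccnb1 by 2.83 and Mcm3 by 2.21. The summed level of the list was 79665 to 86599 in control and 257676 to 475519 in the libraries labelled Zfp292-OE. Libraries 1, 2 and 3 with the Zfp292-OE label stood 2.13, 2.43 and 1.63 above the control mean on the log2 scale, averaged over the list. The changes of Ezh2 (0.98), Eed (1.24), Rbbp7 (1.16) and Phf19 (1.75) lay below the list's median and within its range. That of Mtf2 (0.52) lay below the range. The part of cell division in the PRC2 values was not tested.

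Markers of cell types moved as well, and their part in the PRC2 values was not tested. Among all tested genes, 10% were called higher and 7.38% lower. An unadjusted limma p below 0.05 was reached by 5351 of the 16316. Of 10 progenitor markers, 4 rose (Hes1, Hes5, Fgf15 and Sfrp2), 1 fell and 5 did not pass. Their summed level was 203426 to 233218 in control and 259956 to 285616 in the others. All 10 rod markers fell, among them Pde6b and Rom1, and their sum went from between 580602 and 712989 to between 154855 and 166466. Of 8 bipolar markers 6 fell, among them Isl1, Bhlhe23 and Grm6, and of 8 cone markers 3 fell (Arr3, Pde6c and Opn1mw). Of 7 Müller glia markers 4 fell, Clu, Apoe and Rlbp1 among them, and 1 rose. Of 8 amacrine and horizontal markers Prox1 and Gad1 fell and Ptf1a rose. None of 6 ganglion cell markers passed (Sncg, Pou4f2 and Pou4f1 had the smallest p), nor any of 6 microglial markers (Csf1r, Aif1 and P2ry12), and edgeR called 0 of both lists, with 0 and 1 at an unadjusted p below 0.05. Of 5 tested vascular markers Cldn5 rose, Rgs5 fell and Pdgfrb did not pass. Neither the 2 tested markers of pigment epithelium (Best1 and Ttr) nor the 3 of red cells (Hbb-bt, Hba-a1 and Alas2) passed in limma or edgeR, with 0 at an unadjusted p below 0.05. No listed marker of these types was at 0 in all 5 libraries.

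The genes most like Ezh2 across the 5 libraries were found by Euclidean distance between log2(value + 1) values, each centred on its own mean. The nearest was Gtf3a, transcription factor IIIA (distance 0.09), with 1642 and 1533 in control and 3017, 3483 and 2938 in the others. It was followed by Smc6 (0.09), of the Smc5/6 genome maintenance complex, Tfdp1 (0.12), which encodes a dimer partner of E2F factors, the glucosyltransferase gene B3glct (0.13) and the centrosome gene Cep57 (0.13). Their log2 fold changes lay between 0.89 for Tfdp1 and 1.05 for B3glct. Nearest to Ezh1 were Rictor (0.05), D11Wsu47e (0.07), Sh3glb2 (0.08), Cplane1 (0.09) and Srp68 (0.11), with log2 fold changes of −0.29 to −0.18 and overlapping groups. With 5 libraries in 2 groups, many genes share such patterns, and these distances are a description.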

How the data were processed

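Each deposited value is a gene's normalised signal, which the authors made by dividing read counts by 1 factor per library, as the values show: 100% were whole multiples of the smallest value above 0, within 1e-06 of a read. The table has 24594 genes and 5 libraries, with 0 columns of other samples. Builds GRCm38 and mm10 are named in the submitters' processing notes. Aligner, counter, annotation, scaling method and use of strand: not given in the sources used here. Per the labels, a SMARTER kit was used on 1.3 µg total RNA.

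The 16316 genes whose mean value reached 10 entered limma (version 3.58.1 in R 4.3.3, with an intensity trend), fitted to log2(value + 1), a scale that understates changes of low genes, with Benjamini-Hochberg adjustment over all of them. Because the values were normalised, edgeR 4.0.16 and DESeq2 1.42.0 on recovered whole reads were alternatives, in which edgeR called 2621 genes. The others were a pseudocount of 0.5 or of 10, a filter at 50 or none, TMM scaling, equal totals, quantile normalization, fits with each library left out and a replicate block, 15 in all. Gene positions and promoters are from RefSeq (GRCm38.p6, 24570 identifiers matched) and exon lengths from GENCODE vM21 (GRCm38). Figures used matplotlib 3.10.9.

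The members and the 21 gene lists were chosen with earlier results of these data known. Genes named are Zfp292, the members, all tested genes of the 2 small PRC2 lists (other accessory genes and demethylases), the 3 with the smallest p of each other list, and the 5 nearest in pattern (mean of at least 50) to Ezh2 and Ezh1. Further genes called in a list, list genes given for their role (Ring1, Bmi1, Pax6 and Rax) and genes whose exons overlap a member were named after their values were seen. Single values of 2 cell type markers are not reported here. Counts for this comparison were simulated in 5 datasets of 16316 genes, 200 of them changed. The share found by limma was 4.27% for 1.5-fold changes, 35.3% for 2-fold and 64.9% for 4-fold. Of its calls, 12.0% were unchanged genes. In the real data limma called 17.4% of tested genes, a larger share than was changed in the simulation. The simulated shares may therefore not carry over.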

Additional observations from a re-analysis of the deposited data

How the results depend on the processing

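Of the 10 members, Ezh2, Eed, Rbbp7 and Jarid2 kept their direction and their call in 13 of 15 alternatives, the exceptions being the fits without control library 1 or 2. The number of members higher was 5, and 3 with equal totals and with no filter. With no filter, 2397 of 20876 genes were called in either direction. Leaving out a library gave 0 to 4 members higher and 0 to 1 lower. Over all genes, 1632 were higher and 1204 lower. With equal totals, 913 were higher and 1986 lower, the median log2 fold change of all genes moved from −0.06 to −0.27, and 1838 were lower in DESeq2. Leaving out a library gave 0 to 1359 genes higher and 1 to 993 lower. The difference in the log2 ratio of Ezh2 to Ezh1 kept its sign in all 6 alternatives run for it (1.12 to 1.45), in which no exact test could reach the threshold. Signs turned for genes not past the threshold: Aebp2 (−0.062 with equal totals, −0.070 to 0.38 when a library was left out), Kdm6a (−0.14 and −0.24 to 0.40), and Zfp292 (−0.17 with equal totals, −0.21 after quantile normalization, −0.011 with a replicate block, −0.033 to 0.12 when a library was left out). E230029C05Rik was 0.12 after quantile normalization. When a library was left out, Ttr ranged from −0.61 to 3.41, Hba-a1 from −0.020 to 1.97 and Alas2 from −2.05 to 0.0070. The cause of these shifts was not tested. Replicate numbers shared by the groups gave 2 pairs whose deviations correlated at −0.04 and −0.03, so they were not taken as pairs. With the replicate block, 4 members were higher and 1 lower, where 2498 of 16316 genes were called in either direction. Library 3 labelled Zfp292-OE has no control of its number. The block's log2 fold changes of the members therefore equal those of the fit without that library. Fits without a control library leave that group with 1 sample, assumed to vary as the others do. Low counts limit Phf19 most, with 91 reads in control library 1. Recovered reads of Cdkn2b were all even (162 and 416 in control, 88, 150 and 76 in the others). Those of Phf19 in control were odd (91 and 139). Whether both mates of a read pair were counted was not tested, so reads may outnumber independent fragments.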

Other observations

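Genes known as targets of Polycomb silencing were read as values, since no mark was measured. None of the 39 Hox genes reached the minimum mean value of 10, and 26 had 0 reads in all 5 libraries. Over the whole Hox list there were 11 and 16 reads in control, against 9, 6 and 6 in the libraries labelled Zfp292-OE, from 3 to 7 genes per library. Cdkn2a, a cell cycle inhibitor silenced by Polycomb in many dividing cells, had 0 and 4 reads in control and 8, 0 and 0 in the others. Its neighbour Cdkn2b read 177 and 320 in control and 100, 141 and 79.5 in the others (log2 fold change −1.19, limma adjusted p = 0.20).

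Outside the Hox list, 18 textbook targets were found in the table, Cdkn2a and Cdkn2b included. Of these 7 were tested, 0 rose, 2 fell and 5 did not pass. Among all tested genes, 10% were called higher and 7.38% lower. The paired-box gene Pax7 fell by 2.17 on the log2 scale, from a control mean of 778 ± 218 (SD, n = 2) to one of 178 ± 73.3 (SD, n = 3) (SE 0.48, limma adjusted p = 0.015, range over 15 alternatives 0.00026 to 0.20). The LIM-homeobox gene Lhx3 fell as well, with 1124 and 939 in control and 82.1, 0 and 15.7 in the others (adjusted p = 0.018, range 0.00049 to 0.24). The T-box gene Eomes had 279 and 334 in control and 575, 516 and 550 in the others (log2 fold change 0.84, adjusted p = 0.14). Markers of retinal cell types moved between the same libraries, and their part in these values was not tested.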
